A study of Mus musculus with 2 samples.

Results

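Brain lipoprotein carriers and receptors were described here as 9 genes chosen by symbol: Apoe, Clu, Apod, Abca1, Abca7, Lcat, Lrp1, Lrp8 and Vldlr. All 9 were found among the 55536 gene entries of the deposited tables, of which 22028 are protein coding. The samples were left cerebral cortex of adult male mice of the strain B6CASTF1/J, the first-generation hybrid of B6 and Cast, aged 8 to 10 months. There was 1 group of 2 libraries, replicate 1 from animal 2 and replicate 2 from animal 4, and no treatment, genotype or time was compared. Each library was total RNA, ribosome-reduced and strand-specific, made from 300 ng of RNA with ERCC spike-ins. Both libraries carry the same donor label, and only the animal numbers in their descriptions show 2 animals. Because the samples form 1 group, the values are descriptions with the spread between animals, and no test between conditions exists. An exact sign-flip test over 2 animals could not give a p below 0.5.

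Lipid moves between brain cells in small particles that glia assemble and other cells take up, because the particles of blood plasma do not cross into the brain. Apolipoprotein E and clusterin (apolipoprotein J) are the main protein carriers, the ABC transporters load them with cholesterol and phospholipid, and lecithin-cholesterol acyltransferase converts their free cholesterol to ester. Receptors of the low-density lipoprotein (LDL) receptor family then take the particles up, and a pair of them, Lrp8 and Vldlr, also receive reelin, the signal that guides cortical neurons into layers.

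The libraries held 26925514 and 30143684 expected counts for replicates 1 and 2. Leaving out the spike-ins, the tRNA entries and 356 genes for ribosomal RNA, the totals were 24688669 and 27440152. The levels below are TPM (a length-corrected share of all transcripts), and unless stated they come from the first of the authors' 2 quantifications, which used alignments to the transcriptome. Markers of neurons (7 of 7 genes), astrocytes (8 of 8), oligodendrocytes (7 of 7) and microglia (7 of 7) were all at 1 TPM or more in both animals. The excitatory cortical marker Slc17a7 stood at 441 and 470 TPM. The liver markers summed to 0.95 and 1.40 TPM, with Ahsg and Serpina1a at 0. Genes used as markers of striatum, a list added with the data known, were also present, 5 of 5 at 1 TPM or more, among them Ppp1r1b at 259 and 287 TPM, Penk at 176 and 196 TPM and Drd1 at 41.7 and 36.4 TPM. Whether the dissected tissue held striatum beside cortex was not tested, so the levels are those of libraries labelled left cerebral cortex. Choroid plexus markers summed to 258 TPM in replicate 1 and 105 TPM in replicate 2, and all 5 that were abundant enough to compare were at least 2-fold higher in replicate 1. In whole tissue, fewer cells of a type and less RNA per cell cannot be told apart.

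The 9 genes covered a wide range, from Apoe at a mean of 798 TPM to Abca7 at 5.50 TPM, and summed to 1509 TPM in replicate 1 and 1554 TPM in replicate 2. For comparison, the 12994 protein-coding genes with at least 1 TPM in both animals had a median of 16.2 TPM. The secreted carriers stood highest, the receptors in the middle, and the transporters and the acyltransferase lowest. Lrp1, a receptor, was the exception in standing above the carrier Apod.

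**Figure D1:**
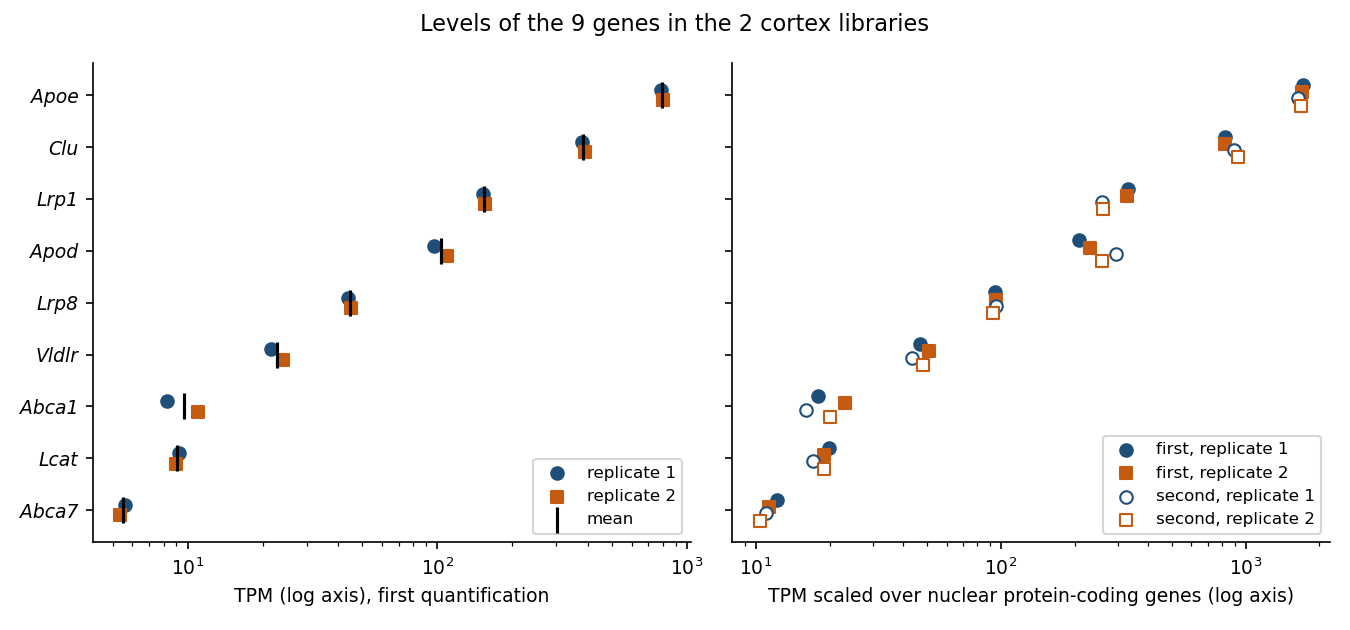
TPM of the 9 genes on log axes, replicate 1 as circles and replicate 2 as squares. The left panel shows the first quantification with the mean as a tick. The right panel shows both quantifications scaled over nuclear protein-coding genes, the second with open symbols. Apoe and Clu lead in every library, the 2 animals lie close together, and the symbols of Abca1 and Lcat cross.

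Apoe (ENSMUSG00000002985.16, chromosome 7, 19696109 to 19699188, minus strand, mm10) encodes apolipoprotein E, the lipid carrier that astrocytes release. Its level was 791 TPM in the first animal (replicate 1) and 805 TPM in the second (replicate 2), a mean of 798 ± 9.86 TPM (SD, n = 2), from 14159 and 15661 counts. This placed it at rank 37 among protein-coding genes. Clu (ENSMUSG00000022037.15, chromosome 14, 65968483 to 65981547, plus strand) encodes clusterin, a carrier that is also an extracellular chaperone. It stood at 380 and 390 TPM, a mean of 385 ± 6.82 TPM (SD, n = 2), at rank 113. The Apoe level was 2.08 times that of Clu in replicate 1 and 2.06 times in replicate 2. By the second quantification, made from the reads themselves, the ratio was 1.83 and 1.81, so the order was the same and the distance smaller. Apod (ENSMUSG00000022548.14, chromosome 16, 31296192 to 31314808, minus strand) encodes apolipoprotein D, a lipocalin that binds small lipids and is no relative of apolipoprotein E or clusterin. It stood at 96.7 and 109 TPM, a mean of 103 ± 8.97 TPM (SD, n = 2), at rank 906. Apoe exceeded it 8.18-fold in replicate 1 and 7.36-fold in replicate 2. The Apod level depended on the quantification. Scaled over nuclear protein-coding genes, it was 1.26 times as high by the second as by the first.

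Abca1 (ENSMUSG00000015243.4, chromosome 4, 53030787 to 53159895, minus strand) encodes the transporter that moves cholesterol and phospholipid onto lipid-poor apolipoprotein. Its level was 8.28 and 10.99 TPM, lower in replicate 1, a mean of 9.64 ± 1.92 TPM (SD, n = 2), at rank 8546. Its relative Abca7 (ENSMUSG00000035722.15, chromosome 10, 79996494 to 80015572, plus strand), a lipid transporter also tied to phagocytosis, stood at 5.62 and 5.37 TPM, a mean of 5.50 ± 0.177 TPM (SD, n = 2). The ratio of Abca1 to Abca7 was 1.47 in replicate 1 and 2.05 in replicate 2. Its denominator moved little between the animals. Lcat (ENSMUSG00000035237.7, chromosome 8, 105939551 to 105943382, minus strand), the acyltransferase, stood at 9.24 and 8.96 TPM, a mean of 9.10 ± 0.198 TPM (SD, n = 2). It rested on the fewest counts of the 9 genes, 202 and 213. Lcat was above Abca1 in replicate 1 and below it in replicate 2. They were the only neighbours in the order of the 9 genes whose ranges over the animals overlapped.

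Lrp1 (ENSMUSG00000040249.15, chromosome 10, 127538161 to 127621148, minus strand) encodes the large endocytic receptor that takes up apolipoprotein E and many other ligands. It stood at 153 and 155 TPM, a mean of 154 ± 1.58 TPM (SD, n = 2), at rank 508, and had more counts than any other of the 9, 23960 and 25976. Lrp8 (ENSMUSG00000028613.14, chromosome 4, 107802261 to 107876840, plus strand), also called apolipoprotein E receptor 2, stood at 43.9 and 45.2 TPM, a mean of 44.6 ± 0.919 TPM (SD, n = 2). Vldlr (ENSMUSG00000024924.14, chromosome 19, 27216484 to 27254231, plus strand), its partner in reelin signalling, stood at 21.6 and 24.2 TPM, a mean of 22.9 ± 1.83 TPM (SD, n = 2). Lrp8 exceeded Vldlr 2.03-fold in replicate 1 and 1.87-fold in replicate 2, and Lrp1 exceeded Lrp8 3.48-fold and 3.43-fold. The Lrp1 level was lower by the second quantification, 0.790 times the first when both were scaled over nuclear protein-coding genes. On the TPM of the second quantification Apod, at a mean of 145 TPM, then stood above Lrp1, at 137 TPM, the only pair whose order by mean it changed. Replicate 1 alone carried the change, with Apod at 129 TPM and Lrp1 at 113 TPM. In replicate 2 Apod stood at 161.2 TPM and Lrp1 at 161.4 TPM. These values order genes within a library, since each of the 9 genes was higher in replicate 2 on that scale. Scaled over nuclear protein-coding genes, the second quantification gave Lrp1 nearly equal values in replicates 1 and 2 (258.6 and 260.1). It gave Apod a lower value in replicate 2 (294.9 and 259.7), so the direction for Apod differed between the scales.

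How each level divides among annotated transcripts separated the genes into 2 kinds. Apoe, Clu, Abca1, Abca7 and Lcat were almost wholly protein coding by the first quantification, and Vldlr was 93.7% so. Lrp1, Apod and Lrp8 put a large share of their TPM in transcripts annotated as non-coding, which include retained introns and transcripts marked for nonsense-mediated decay, the pathway that removes messages with an early stop. Their protein-coding shares were 61.8% ± 0.134, 56.7% ± 6.39 and 43.2% ± 5.18 (SD, n = 2). The median over 11755 protein-coding genes with 2 or more transcripts was 87.6%. Of those genes, 18.3% lay below Lrp1, 14.5% below Apod and 7.77% below Lrp8.

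**Figure D2:**
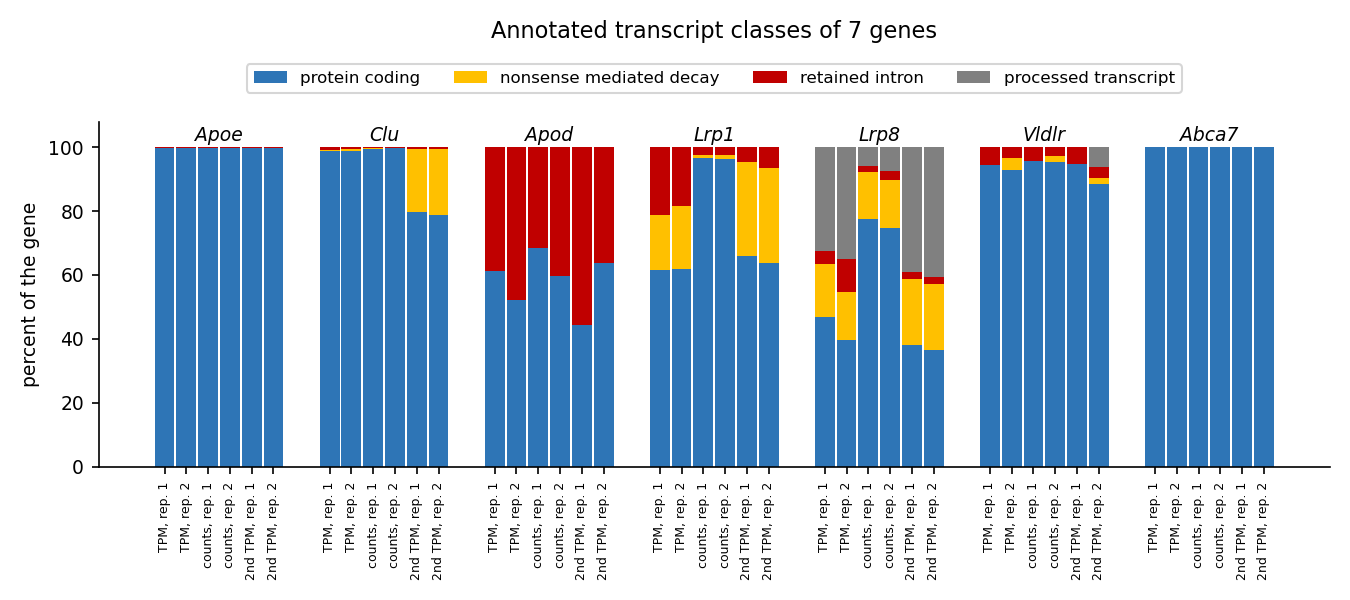
Percent of each gene in 4 annotated transcript classes, with 6 bars a gene: TPM of the first quantification, its expected counts, and TPM of the second quantification, each for replicates 1 and 2. Apod and Lrp8 are divided by every measure, Lrp1 only by TPM, and Clu only by the second quantification.

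The measure decided the picture for Lrp1. Its full-length transcript Lrp1-201, of 14888 bases and 89 exons, held 57.4% and 56.0% of the TPM of the gene but 95.2% and 94.6% of its counts. Lrp1-205, a transcript of 679 bases marked for nonsense-mediated decay, held 17.0% and 19.7% of the TPM from only 1.11% and 1.30% of the counts. Lrp1-208, a retained intron of 763 bases, held 14.8% and 11.2% of the TPM, and the second quantification gave it 0%. TPM divides counts by length, so a given number of counts weighs more on a short transcript than on a long one. By counts, 96.5% and 96.4% of Lrp1 was protein coding.

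Apod was divided by counts as well. The coding transcript Apod-202 held 55.5% of the TPM in replicate 1 and 46.8% in replicate 2, and the retained-intron transcript Apod-201 held 32.0% and 40.8%. Protein-coding transcripts held 68.3% and 59.7% of the counts. The second quantification moved these shares. It gave Apod-202 40.6% and 58.6%, and it gave a retained-intron transcript of 422 bases, Apod-205, 32.2% in replicate 1 and 0% in replicate 2. The total for retained introns by that quantification was 55.6% and 36.1%, opposite in order to the 38.8% and 47.8% of the first.

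Lrp8 had the lowest coding share by TPM, and Apod the lowest by counts. Lrp8-202, the only transcript with the long last exon of 4568 bases, held 37.3% and 33.8% of the TPM and 68.0% and 68.7% of the counts. Lrp8-209, of 3291 bases and marked for nonsense-mediated decay, held 16.5% and 15.0% of the TPM and nearly the same share of counts, 14.7% and 14.9%. Lrp8-207 and Lrp8-212, non-coding transcripts of 672 and 797 bases, held 16.8% and 23.8%, and 15.9% and 9.99%, of the TPM. Together the protein-coding transcripts held 77.6% and 74.8% of the Lrp8 counts. Lrp8os2, an antisense gene inside the Lrp8 interval with no exon bases in common, had 59 and 87 counts. Whether the counting used strand is not given in the sources used here.

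The carriers and Vldlr each had a leading coding transcript. Clu-201 held 98.1% and 98.3% of the Clu TPM, and the second quantification gave it 79.4% and 78.8%, with 19.9% and 20.7% on Clu-205, a fragment of 558 bases marked for nonsense-mediated decay. Apoe-209 held 88.6% and 92.6% of the Apoe TPM. The second quantification gave Apoe-209 74.9% in replicate 1 and 0% in replicate 2, where Apoe-201 held 79.1%. Apoe-209, Apoe-201, Apoe-205 and Apoe-206 share the same 933 coding bases and differ outside them, so this exchange left the Apoe coding share at 99.8% in both animals by that quantification. Vldlr-207, the only Vldlr transcript with the last exon of 5127 bases, held 65.1% and 58.8% of the TPM, Vldlr-202 held 14.0% and 18.1%, and Vldlr-208 held 14.4% and 12.7%. Abca1-201 and Lcat-201 held all of their genes. By the first quantification the leading transcript was the same in both animals for 8 of the 8 members with more than 1 transcript, and it differed in 14.2% of the 11755 genes. By the second it differed for 1 of 8, Apoe, and in 20.0% of genes. The 2 quantifications named different leaders in at least 1 animal for 1 of 8, again Apoe, and for 30.5% of genes. All 8 leading transcripts were protein coding by the first quantification, where 8.14% of genes had a non-coding leader.

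In Abca7, Lrp8 and Vldlr the coding transcripts also differ in the protein they encode, through segments of coding sequence that some transcripts hold and others skip. The 5 printed here are among those whose shares follow. Each is given 5′ to 3′ on the strand of its gene, from the GENCODE M21 transcripts on mm10, with the optional segment in capitals and 12 flanking coding bases on each side in lower case.
Abca7, 24 bases, chr10:80007300-80007323: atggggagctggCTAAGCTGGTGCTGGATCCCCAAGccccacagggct
Vldlr, 123 bases, chr19:27236240-27236362: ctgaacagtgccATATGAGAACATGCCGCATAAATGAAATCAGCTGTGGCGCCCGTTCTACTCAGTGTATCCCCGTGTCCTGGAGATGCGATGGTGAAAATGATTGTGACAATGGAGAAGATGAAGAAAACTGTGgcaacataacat
Vldlr, 84 bases, chr19:27246593-27246676: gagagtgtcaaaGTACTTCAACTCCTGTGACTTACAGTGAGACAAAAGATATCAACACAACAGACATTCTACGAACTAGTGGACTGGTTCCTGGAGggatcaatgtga
Lrp8, 123 bases, chr4:107848281-107848403: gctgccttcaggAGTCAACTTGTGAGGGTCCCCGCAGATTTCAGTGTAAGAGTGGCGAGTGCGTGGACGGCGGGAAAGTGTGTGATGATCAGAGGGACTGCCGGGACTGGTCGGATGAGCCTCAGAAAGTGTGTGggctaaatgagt
Lrp8, 177 bases, chr4:107870012-107870188: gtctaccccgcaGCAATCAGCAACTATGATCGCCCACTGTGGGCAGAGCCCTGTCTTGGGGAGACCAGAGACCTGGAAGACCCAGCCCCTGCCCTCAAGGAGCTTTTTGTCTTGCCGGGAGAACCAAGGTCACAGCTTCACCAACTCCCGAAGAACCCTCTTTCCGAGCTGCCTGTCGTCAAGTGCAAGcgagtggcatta

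The shares below are percents of the TPM of all annotated transcripts, other than retained introns, that span the segment with or without it. They are sums over whole-transcript estimates, not reads counted over the segments or their junctions. A share can therefore also depend on other parts of the transcripts, such as the long last exons of Vldlr-207 and Lrp8-202. That dependence was not tested. The Vldlr segment of 123 bases encodes a ligand-binding repeat, a small cysteine-rich module of the outer part of the receptor. It was in 85.1% of the TPM in replicate 1 and 80.6% in replicate 2, a mean of 82.8% ± 3.18 (SD, n = 2). The Vldlr segment of 84 bases encodes the stretch next to the membrane that carries O-linked sugars. It was in 69.7% and 63.2%, a mean of 66.4% ± 4.55 (SD, n = 2), and Vldlr-207 was the only one of those transcripts to hold it. By these estimates both Vldlr segments were in most of the TPM in both animals. By the second quantification the shares were 81.5% and 76.3% for the 123 bases and 67.9% and 59.3% for the 84 bases.

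Lrp8 has 4 optional segments of more than 100 bases, and they differed. The segment of 225 bases, at chromosome 4, 107861133 to 107861357, encodes the stretch next to the membrane and was in 100% of the TPM in both animals. The other 3 were each in the minority of the TPM by the first quantification. The segment of 381 bases, at chromosome 4, 107846239 to 107846619, encodes several of the ligand-binding repeats. It was in 27.4% and 28.6%, a mean of 27.98% ± 0.840 (SD, n = 2). The segment of 123 bases, a further ligand-binding repeat, was in 46.4% and 42.8%, a mean of 44.6% ± 2.51 (SD, n = 2). The segment of 177 bases encodes an insert of the cytoplasmic tail, the part of the receptor inside the cell. It was in 41.2% and 37.3%, a mean of 39.2% ± 2.77 (SD, n = 2). By the second quantification the 123-base segment was in 52.8% and 50.9%, above 50% in both animals, while the 381-base segment was in 30.1% and 34.6% and the 177-base segment in 41.2% and 45.5%. The most counted transcript, Lrp8-202, lacks all 3 of these segments, and Lrp8-209, which is marked for nonsense-mediated decay, holds all 3.

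Much of these Lrp8 shares lay in transcripts not annotated as coding. The 123-base segment in replicate 1 was carried by 7.24 TPM of Lrp8-209, 6.96 TPM of the non-coding Lrp8-212 and 1.93 TPM of the coding Lrp8-203. Over protein-coding transcripts alone, a measure added after seeing the data, the 123-base segment was in 9.38% and 7.89%, the 381-base segment in 11.1% and 6.60%, and the 177-base segment in 20.5% and 14.5%. By expected counts over all transcripts that span the segments, the shares for the 123 bases were 21.9% and 21.05%. Those for the 381 bases were 22.2% and 21.1%, and for the 177 bases 26.3% and 23.1%. All 3 Lrp8 segments were thus in the minority by these measures, the coding transcripts giving the lowest shares. The Vldlr segments were in the majority over protein-coding transcripts alone too, the 123 bases at 85.0% and 79.8% and the 84 bases at 69.7% and 65.7%.

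For Abca7 the 24-base segment separates Abca7-203, which holds it, from Abca7-202. Abca7-203 held 55.6% and 62.1% of the TPM, a mean of 58.9% ± 4.58 (SD, n = 2), and 65.6% and 86.3% by the second quantification. The authors' deposited intervals for Abca7-203 ran from 1.71 to 3.85 TPM in replicate 1 and from 1.99 to 4.11 TPM in replicate 2. Those of Abca7-202 ran from 1.43 to 3.41 TPM and from 0.80 to 2.89 TPM, so the intervals of the 2 transcripts overlapped in each animal. Abca7-203 led in both animals by both quantifications, but the order of the 2 transcripts was not tested. The level of those intervals is not given in the sources used here.

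**Figure D3:**
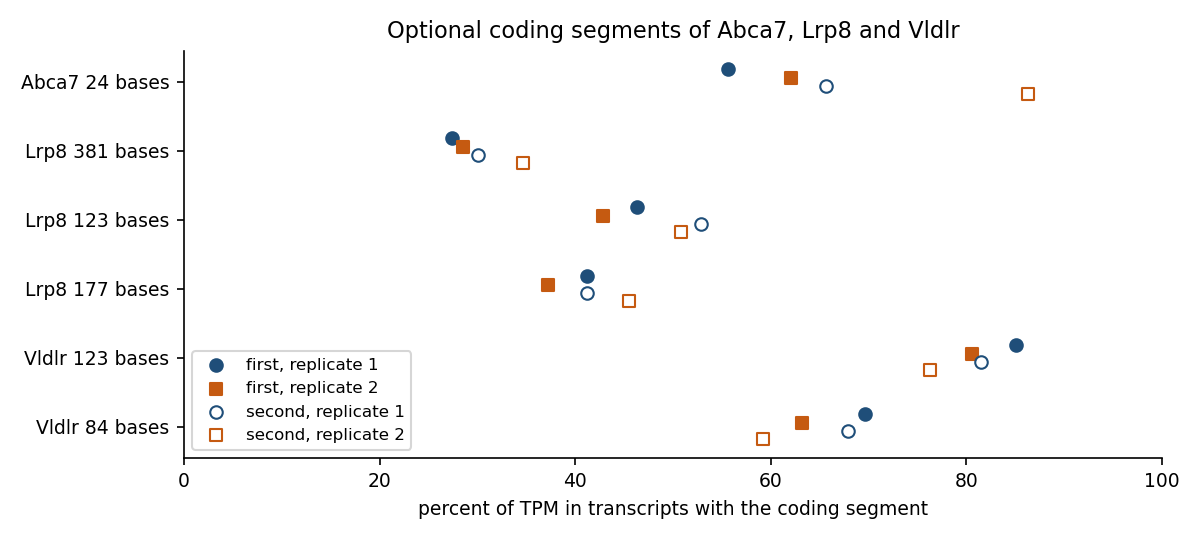
Percent of TPM in transcripts, coding or not, that hold each of 6 optional coding segments, for both animals (circles, replicate 1; squares, replicate 2) and both quantifications (filled, first; open, second). The Vldlr segments lie above 50% in every case, the Lrp8 segments of 381 and 177 bases below it, and the Abca7 segment spreads most, from 55.6% to 86.3%.

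The animals were compared on expected counts scaled by TMM, edgeR's normalisation for library composition, as log2 of replicate 1 over replicate 2. None of the 9 genes differed 2-fold, where 0.861% of the 14169 genes tested did (those averaging 50 or more normalised counts). A smaller distance, a log2 ratio of 0.32 or more in size, was passed by Abca1 alone, which was higher in replicate 2. Of all genes, 7.00% passed 0.32 in that direction, 5.97% in the other and 13.0% in either, so 1 of 9 lay near the background. The median absolute ratio was 1.06-fold for the 9 genes and 1.08-fold for all genes. The middle 95% of all genes lay between -0.52 and 0.50 on the log2 scale.

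Abca1 had 1480 counts in replicate 1 and 2138 in replicate 2. After scaling it was 1.29-fold higher in replicate 2, with an exact 95% binomial interval of 1.20 to 1.38, which covers counting error only. Its log2 ratio was -0.36 with TMM and -0.29 when scaled by the spike-ins, which is short of 0.32. Spike-in scaling shifted the median of all genes by 0.07. Lrp8 lay next, at a log2 ratio of 0.16, or 1.12-fold higher in replicate 1 (interval 1.06 to 1.18). Apod had a log2 ratio of -0.11 and was 1.08-fold higher in replicate 2 (interval 1.01 to 1.15). Lrp1 was 1.04-fold higher in replicate 1 (interval 1.02 to 1.05). The counting interval left out 1 for these 4 of 9 genes, and for 33.4% of all genes tested. The other 5 genes were Apoe at 0.02, Clu at 0.01, Vldlr at -0.02, Lcat at 0.09 and Abca7 at 0.11 on the log2 scale, and their counting intervals all held 1. With 1 library an animal, differences between animals and between library preparations cannot be told apart. Of the 9 genes, 6 were higher in replicate 1, Lrp8 and Lrp1 among them, and 3 in replicate 2, namely Abca1, Apod and Vldlr. The choroid plexus markers (median log2 ratio 2.57 over 5 genes) were higher in replicate 1, and the astrocyte markers had a median log2 ratio of 0.02. The part of either in these ratios was not tested.

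**Figure D4:**
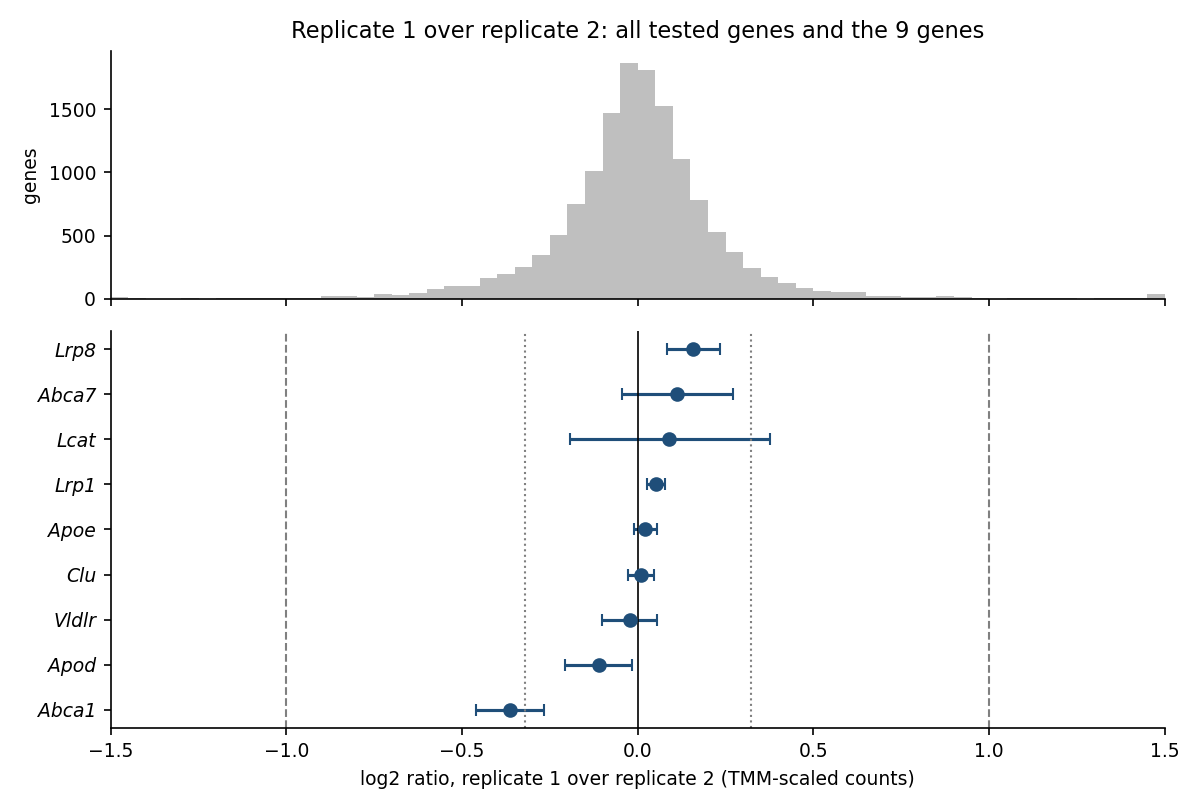
Log2 ratio of replicate 1 over replicate 2 on TMM-scaled counts. The upper panel counts the 14169 genes tested, with ratios beyond the axis placed in the end bins. The lower panel shows the 9 genes with exact 95% counting intervals, dotted lines at 0.32 and dashed lines at 2-fold. Abca1 at -0.36 is the only gene past a dotted line.

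Around the 9 genes, 61 other genes of lipoprotein handling were read from 7 lists, and 47 of them were at 1 TPM or more in both animals. None was as high as Apoe. The apolipoproteins of plasma were nearly absent. Of 11, only Apoc1, which lies beside Apoe in the genome and rides on plasma lipoproteins, reached 1 TPM in both animals, at 1.37 and 2.87 TPM from 8 and 18 counts. Apoa2 stood at 0.92 and 1.17 TPM and Apoc3 at 0.49 and 0.74 TPM, while Apoa4, Apoa5 and Apoc4 had no counts. The second quantification gave Apoc4 2.40 TPM on the coding-gene scale. By contrast the other lipid transporters were all present, 10 of 10. Abca2, a transporter of myelin-forming cells, stood at 73.0 and 83.4 TPM, Abcg1, which passes cholesterol to lipidated particles, at 38.5 and 43.3 TPM, and Abca3 at 29.9 and 33.2 TPM. Each exceeded both Abca1 and Abca7 in both animals. The lowest was Abca8a at 1.99 and 2.64 TPM.

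In the list of other LDL receptor family genes, which also holds the unrelated receptors Sort1 and Scarb1, 12 of 13 genes reached 1 TPM in both animals. The sorting receptors Sort1, at 132 and 133 TPM, and Sorl1, at 86.4 and 84.2 TPM, lay below Lrp1 and above Lrp8. Lrp11 stood at 62.6 and 67.0 TPM. Lrp2, the receptor of kidney and choroid plexus epithelium, was lowest at 0.04 and 0.06 TPM. Of the chaperones and turnover factors, Lrpap1, which keeps new receptors from binding ligand too early, stood at 54.6 and 55.4 TPM, Snx17, a sorting nexin that recycles Lrp1, at 35.4 and 38.4 TPM, and Mesd, a folding chaperone, at 34.3 and 31.3 TPM.

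All 7 genes of reelin signalling were above 15 TPM. Pafah1b1 (Lis1) stood at 196 and 201 TPM, Src at 54.7 and 56.1 TPM, Crk at 56.0 and 52.2 TPM and Crkl, the lowest, at 19.2 and 15.9 TPM. Reln itself stood at 34.8 and 35.3 TPM, between Lrp8 and Vldlr, and its adaptor Dab1 at 52.2 and 51.2 TPM. Among genes that remodel lipoproteins, Pltp, the phospholipid transfer protein, stood at 43.4 and 48.0 TPM, above Lcat. Soat1, which esterifies cholesterol inside cells, stood at 20.4 and 22.4 TPM, the lipase Lpl at 10.3 and 14.1 TPM, and Soat2, the lowest, at 0.03 and 0.12 TPM. Among the regulators, Srebf2, which drives cholesterol synthesis genes, stood at 92.4 and 93.8 TPM, Srebf1 at 37.1 and 39.4 TPM and Rxrb at 36.8 and 36.1 TPM. Nr1h3 (LXR alpha), one of the receptors that turn on Abca1 and Apoe, was lowest at 1.43 and 1.52 TPM. The other LXR, Nr1h2 (LXR beta), stood at 31.78 and 29.25 TPM.

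**Figure D5:**
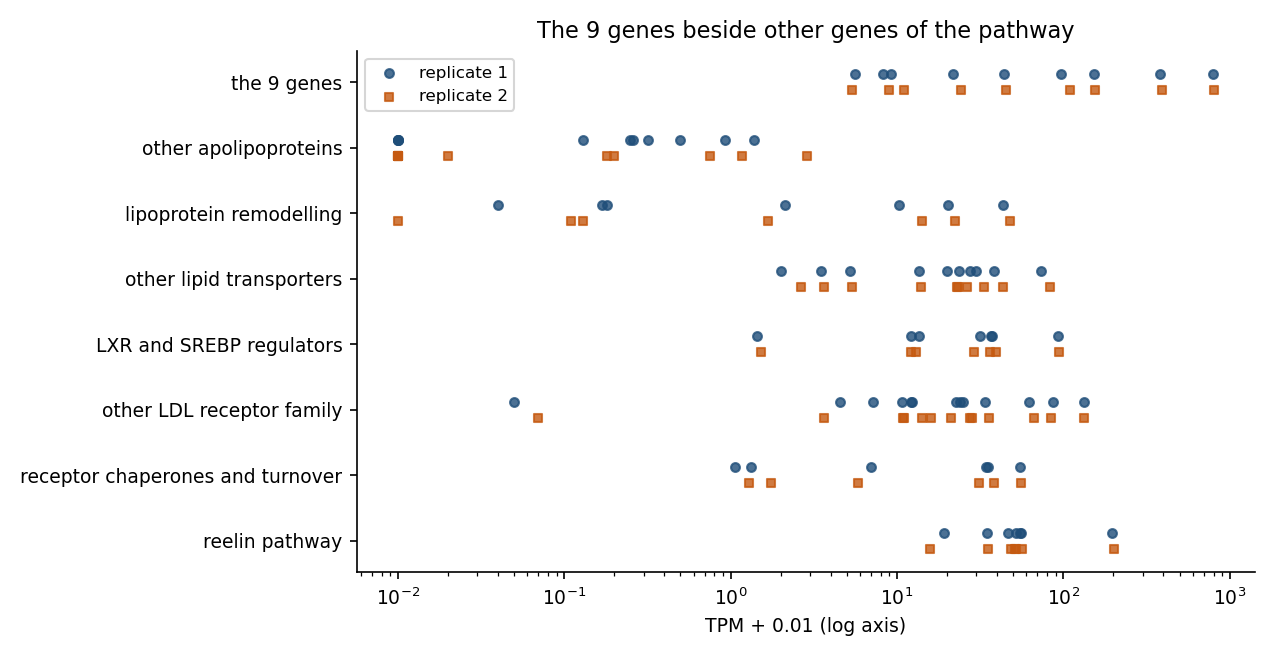
TPM + 0.01 on a log axis for the 9 genes and for 7 lists of other genes of the pathway, replicate 1 as circles and replicate 2 as squares. The other apolipoproteins lie at or below 2.87 TPM, while the LDL receptor family list (with Sort1 and Scarb1), the transporters and the reelin pathway together cover the range of the receptors.

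Of the 61 genes, 45 were abundant enough to compare between the animals, and none differed 2-fold. The endothelial lipase Lipg was higher in replicate 1, at a log2 ratio of 0.38. In all, 3 of the 45 genes passed 0.32 in size, beside the 13.0% of all genes past 0.32 in either direction.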

How the data were processed

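Each library has deposited gene and transcript tables which, per the file headers, hold expected counts, TPM, FPKM and, for transcripts, the percent of the gene. The authors derived them from alignments to the transcriptome (mm10, GENCODE M21). The deposited transcript tables also give intervals of TPM. A second deposited transcript table gives estimated counts and TPM derived from the reads (2 read files for replicate 1, 1 for replicate 2). The program names and versions were not given in the sources used here. How many reads each allele lost was not analysed here.

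The 9 genes were matched by symbol. Counts were rounded and scaled by TMM with edgeR 4.0.16, and log2 ratios were taken with 2 as the prior count, over genes averaging 50 or more normalised counts. DESeq2 1.42.0 size factors were an alternative. Transcripts are named where they held at least 10% of a gene or where the second quantification moved them. From each list the text names the 3 highest genes and the lowest by mean TPM, and those past 2-fold. Lipg, Reln, Dab1, Nr1h2, Apoa4, Apoa5, Apoc4 and the smaller transcripts were named after their values were seen. Some genes of the lists are not reported here. The members and lists were chosen with earlier results of these data known. Patterns were not ranked by likeness, since 2 libraries cannot order them, and ranks among protein-coding genes are given in their place. In simulated data of 14167 genes, the coefficient of variation was set at 0.1. The genes changed 4-fold were drawn from those averaging 200 or more counts, and 200 of 200 were recovered at 2-fold. Of the unchanged genes, 4 passed 2-fold and 16.4% passed a log2 ratio of 0.32. In the data 122 genes passed 2-fold and 13.0% passed 0.32 in either direction, so the simulated spread differed from that of the data. The change was set beyond the 2-fold mark in well-counted genes, so full recovery was built in. The recovery of smaller changes, or of changes in genes with fewer counts, was not tested.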

Additional observations from a re-analysis of the deposited data

How the results depend on the processing

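The order of the 9 genes by TPM did not change with FPKM or with scaling over nuclear protein-coding genes. By the second quantification it changed for Apod and Lrp1, in replicate 1 only. Without replicate 2 Lcat at 9.24 TPM stood above Abca1 at 8.28 TPM. The median level of the 9 genes was 44.6 TPM, 28.7 in FPKM, 49.7 by the second quantification and 95.04 on the coding-gene scale, and 43.9 to 45.2 with either replicate left out. The Apoe to Clu ratio was 1.82 by the second quantification. The median protein-coding share over the 8 genes with several transcripts was 96.3%, and 85.4% by the second quantification. The 122 genes past 2-fold became 78 on log2(TPM + 1), 624 over genes averaging 10 or more normalised counts and 2895 with no filter, and the 1838 past a log2 ratio of 0.32 became 4211 and 11769 under those filters. None of the 9 genes passed 2-fold under any of the scalings, units or filters tried. Abca1 passed 0.32 under each except spike-in scaling. The log2 ratio of Lrp8 was -0.04 on log2(TPM + 1), where 7 of 9 genes were below 0 against 3 of 9 on counts, with the median of all genes at -0.04. No paired analysis was possible because the study has 1 group, and between-animal ratios have no value without either replicate. With 202 and 213 counts, Lcat has the widest counting interval.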
